A study of Neurospora crassa OR74A with 26 samples.

Results

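In the filamentous fungus Neurospora crassa, 136 of 9733 genes were raised to like levels by crystalline cellulose and by the absence of any carbon source. They were chosen on wild-type libraries taken 4 h after a change of medium, by level in FPKM (fragments per kilobase of transcript and per 1e6 sequenced, a level per length). In each gene the means on Avicel and without carbon were both at least 50 FPKM. With 1 added to the means, both were at least 16 times the mean on sucrose and lay within 2-fold of each other. Of the 9733 genes, 5855 passed the level, 222 of these also passed the fold over sucrose, and 136 of those passed the limit on the ratio of the media. Another 143 genes met the fold over sucrose on Avicel and were more than 2-fold above no carbon, and 129 met it without carbon and were more than 2-fold above Avicel.

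Sucrose and the glucose and fructose released from it are preferred carbon sources, and many genes for the use of other carbon sources are kept low while they last. Their loss relieves this carbon catabolite repression whether or not another substrate is present, so part of the response to an insoluble polymer such as cellulose resembles the response to starvation. The transcription factors CLR-1 and CLR-2, in contrast, are known for activating cellulase genes when cellulose breakdown products are sensed.

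Cultures were inoculated with conidia, grown for 16 h in sucrose medium, washed, and given Avicel PH101 (a powder of crystalline cellulose), new sucrose medium or medium lacking carbon. Polyadenylated RNA was sequenced from 26 libraries in 16 groups. Wild type, FGSC 2489, had triplicate libraries (3 each) for Avicel and for sucrose, both 1 h and 4 h after the shift, and for 4 h without carbon. It had single libraries for 30 min and 2 h of Avicel and for 1 h without carbon. A strain with the open reading frame of NCU07705 (clr-1) replaced by a hygromycin resistance cassette, FGSC 11029, and a strain with NCU08042 (clr-2) replaced in the same way, FGSC 15835, had 1 library for each of the 4 combinations of Avicel or sucrose with 1 h or 4 h. The sample titles name these deletions cdr1 and cdr2. Each deletion is thus represented by 1 strain and by no replicate. The labels do not say whether numbered libraries came from separate cultures, so p-values measure the spread between these libraries.

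The reads recovered per library numbered 11.8 M to 110.6 M (M, mega). Read lengths, here and below, were inferred from the deposited coverage values. By this inference replicate 1 of wild type on Avicel and on sucrose had reads of 36 or 40 bases, as had Avicel at 30 min and 2 h. All no-carbon libraries had 51 bases and the other libraries 50. Pearson's r of log2(FPKM + 1) across genes was 0.901 to 0.966 between replicate 1 and the others on Avicel and sucrose, and 0.987 to 0.992 between replicates 2 and 3. The 51-base reads and the absence of carbon cannot be told apart. The deleted gene clr-1 was at 6.13 to 23.1 FPKM in the libraries of its deletion strain, against 253 to 950 FPKM in the wild-type libraries on Avicel, and clr-2 was listed at 0 in all 4 libraries of its deletion strain. A value listed as 0 lay below about 10 reads and is not a measured absence.

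The 136 genes were low on sucrose and high on both other media at 4 h. Their median was 6.7 FPKM on sucrose, 408.4 FPKM on Avicel and 476.3 FPKM without carbon, while the median of all 8629 tested genes was 104.7, 113.3 and 116.6 FPKM. On sucrose at 4 h 10 of the genes were listed at 0 in all 3 libraries, 41 in 1 or 2 libraries, and 85 were above 0 in every library. In 135 genes every Avicel and no-carbon library at 4 h was above every sucrose library. The ranges of the 3 Avicel and the 3 no-carbon libraries overlapped in 104 genes. These values chose the genes and are given without a test, and the same counts were not taken over all tested genes. In bulk RNA, fewer cells of a type and less RNA per cell cannot be told apart. The summed level of the 4 conidiation markers measured (con-6, con-10, con-13 and the hydrophobin gene eas) also moved with medium at 4 h. It was 62.5 to 401.5 FPKM on sucrose, 18532 to 36867 FPKM on Avicel and 73011 to 209205 FPKM without carbon, with con-13 at 0 in all sucrose libraries, and its part in the gene levels was not tested. Most of the sum was eas, at 62.5 to 388 FPKM on sucrose, 17326 to 34620 FPKM on Avicel and 65514 to 206272 FPKM without carbon.

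**Figure D1:**
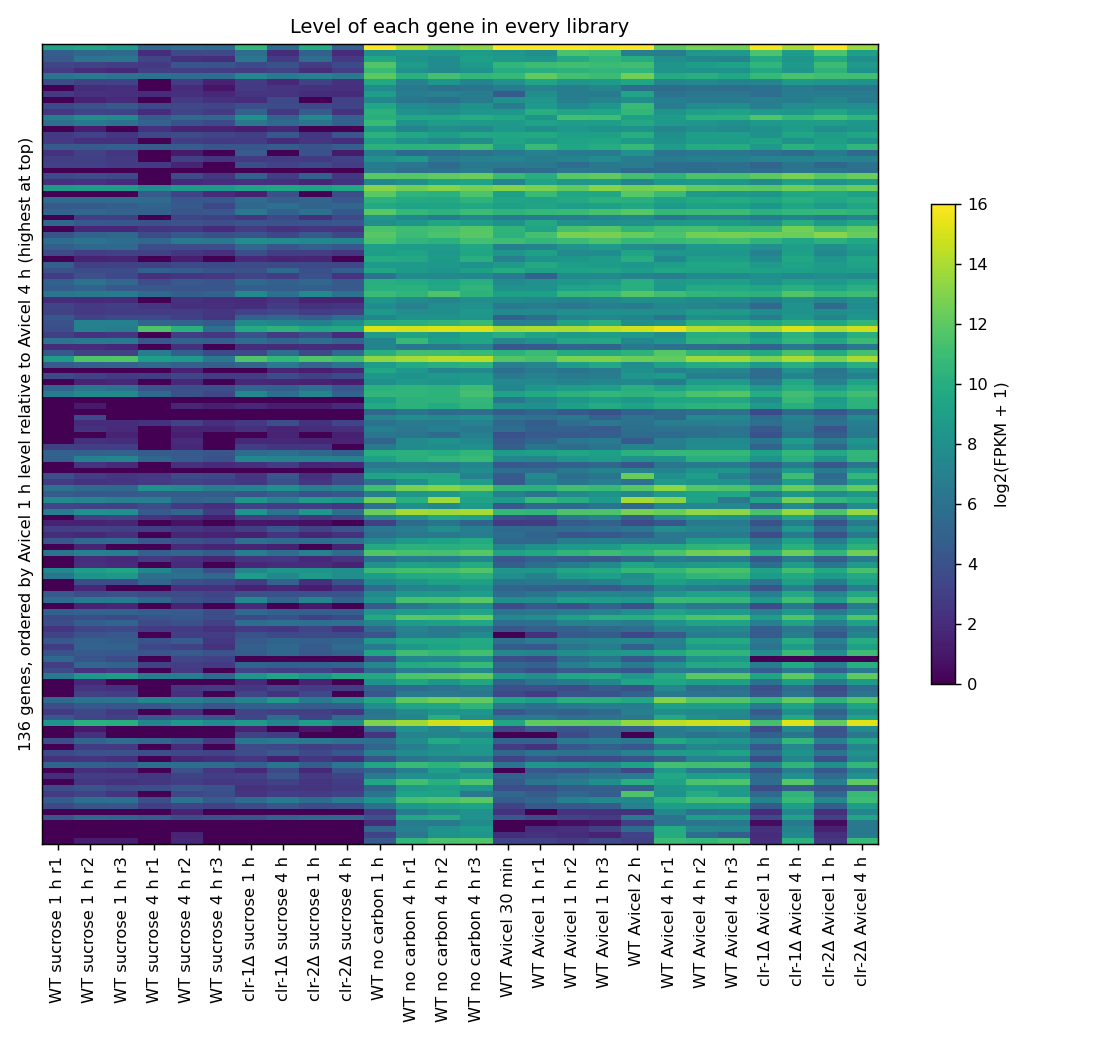
Level of the 136 genes (rows) in the 26 libraries (columns; r, replicate), as log2(FPKM + 1) in colour. Sucrose columns are dark in all 3 strains, and the Avicel columns of both deletion strains are light, with 1 row, matA-1, at 0 in all 8 deletion libraries.

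The thresholds were narrow for some genes. At the level limit, NCU04630, NCU00787 and NCU05625 lay just inside with a lower mean of 50.28, 50.74 and 53.19 FPKM, and NCU07751, NCU05156 and NCU05953 just outside with 49.4, 48.85 and 48.12 FPKM. At the fold limit, NCU00695, NCU01010 and NCU05040 lay inside at 16.01, 16.15 and 16.16 times sucrose, and NCU02128, NCU01989 and NCU05534 outside at 15.99, 15.83 and 15.61 times. At the limit on the ratio of the media, NCU05499, NCU04914 and NCU02179 lay inside at 1.97, 1.96 and 1.96, and NCU05819, NCU05852 and NCU02932 outside at 2.01, 2.01 and 2.02. When each of the 9 libraries that set the rule was left out in turn, 128 to 147 genes met it, and 78 of the 136 met it every time.

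Of the 136 genes, 8 carry a symbol of their own in the reference table, and they cover carbon reserves, polysaccharide breakdown, gluconeogenesis, peroxide defence and mating. The trehalase gene tre-1 (NCU00943, supercontig 1, 6632519 to 6635173), whose enzyme splits the storage sugar trehalose into glucose, was at 111, 363 and 398 FPKM on Avicel and 336, 348 and 419 FPKM without carbon at 4 h, against 3.04, 11.1 and 10.5 FPKM on sucrose. The media overlapped and both were far above sucrose. At 1 h its 3 Avicel libraries were at 251, 2682 and 2212 FPKM, with the 36-base library lowest. At 1 h the single no-carbon library was at 277 FPKM and both deletion strains on Avicel were at 2807 and 2799 FPKM, so the 50-base Avicel libraries of all 3 strains lay together, far above the 36-base and the no-carbon library. tre-1 rose on Avicel against sucrose at 1 h by a log2 difference of 4.93 (SE 0.76, limma adjusted p = 8.14e-05).

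gh31-3 (NCU04674, supercontig 5, 1229388 to 1232393) belongs to glycoside hydrolase family GH31, which includes alpha-glucosidases. At 1 h on Avicel it was at 308, 2345 and 2172 FPKM, again with the 36-base library lowest, against 109, 238 and 205 FPKM on sucrose. No overlap remained between these media, and the difference was 2.73 (SE 0.65, limma adjusted p = 0.00235). gh28-2 (NCU06961, supercontig 4, 4670149 to 4671713) belongs to family GH28, which includes polygalacturonases, enzymes of pectin breakdown. It was listed at 0 in all 3 sucrose libraries at 4 h, and was at 700, 478 and 516 FPKM on Avicel and 684, 337 and 675 FPKM without carbon. Its model overlaps that of NCU11797, and reads of the pair may be shared because the library protocol did not keep strand.

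acu-6 (NCU09873, supercontig 6, 1825084 to 1828323) encodes phosphoenolpyruvate carboxykinase, which starts gluconeogenesis from oxaloacetate. It was the least even of the symbol genes at 4 h. Its Avicel libraries were at 9303, 584 and 82.7 FPKM and its no-carbon libraries at 1161, 12642 and 600 FPKM, against 115, 33.1 and 38.3 FPKM on sucrose. The lowest Avicel library lay below the highest sucrose library, and the gene met the rule in 6 of the 9 repeats that left out a library. At 1 h its Avicel libraries were at 1656, 1020 and 401 FPKM and its sucrose libraries at 180, 159 and 125 FPKM. The groups did not overlap, but the difference of 2.51 (SE 1.39) did not pass the test (limma adjusted p = 0.13).

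cat-2 (NCU05770, supercontig 7, 487350 to 490318) encodes a catalase-peroxidase, an enzyme that removes hydrogen peroxide. It was at 1950, 1682 and 1587 FPKM on Avicel at 4 h, below the no-carbon libraries at 2588, 2627 and 3828 FPKM. At 1 h it was at 247, 515 and 491 FPKM on Avicel and 327 FPKM without carbon, against 46.3, 92.3 and 93.6 FPKM on sucrose, and it rose on Avicel by 2.41 (SE 0.43, limma adjusted p = 0.000254). matA-1 (NCU01958, supercontig 1, 1860747 to 1862088) encodes the regulator of mating identity in mat A strains. It was at 46.8, 283 and 337 FPKM on Avicel and 173, 167 and 241 FPKM without carbon at 4 h, and at 0, 9.58 and 7.56 FPKM on sucrose.

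asd-3 (NCU05597, supercontig 6, 1380321 to 1382261) was among the most even. It was at 107, 84.4 and 91.3 FPKM on Avicel and 106, 101 and 157 FPKM without carbon at 4 h, against 2.32 to 5.62 FPKM on sucrose. tnr-1 (NCU09390, supercontig 7, 2988945 to 2990701) was at 33.6, 137 and 146 FPKM on Avicel and 70.1, 111 and 92.6 FPKM without carbon, against 0 to 3.19 FPKM on sucrose. Its 40-base Avicel library lay below all no-carbon libraries and the other Avicel libraries above them. At 1 h asd-3 rose on Avicel by 3.40 (SE 0.46, limma adjusted p = 2.58e-05). The 1 h difference of tnr-1, 1.43 (SE 0.57), passed at an adjusted p of 0.0419, and leaving out any 1 library on Avicel or sucrose at 1 h gave an adjusted p above 0.05.

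**Figure D2:**
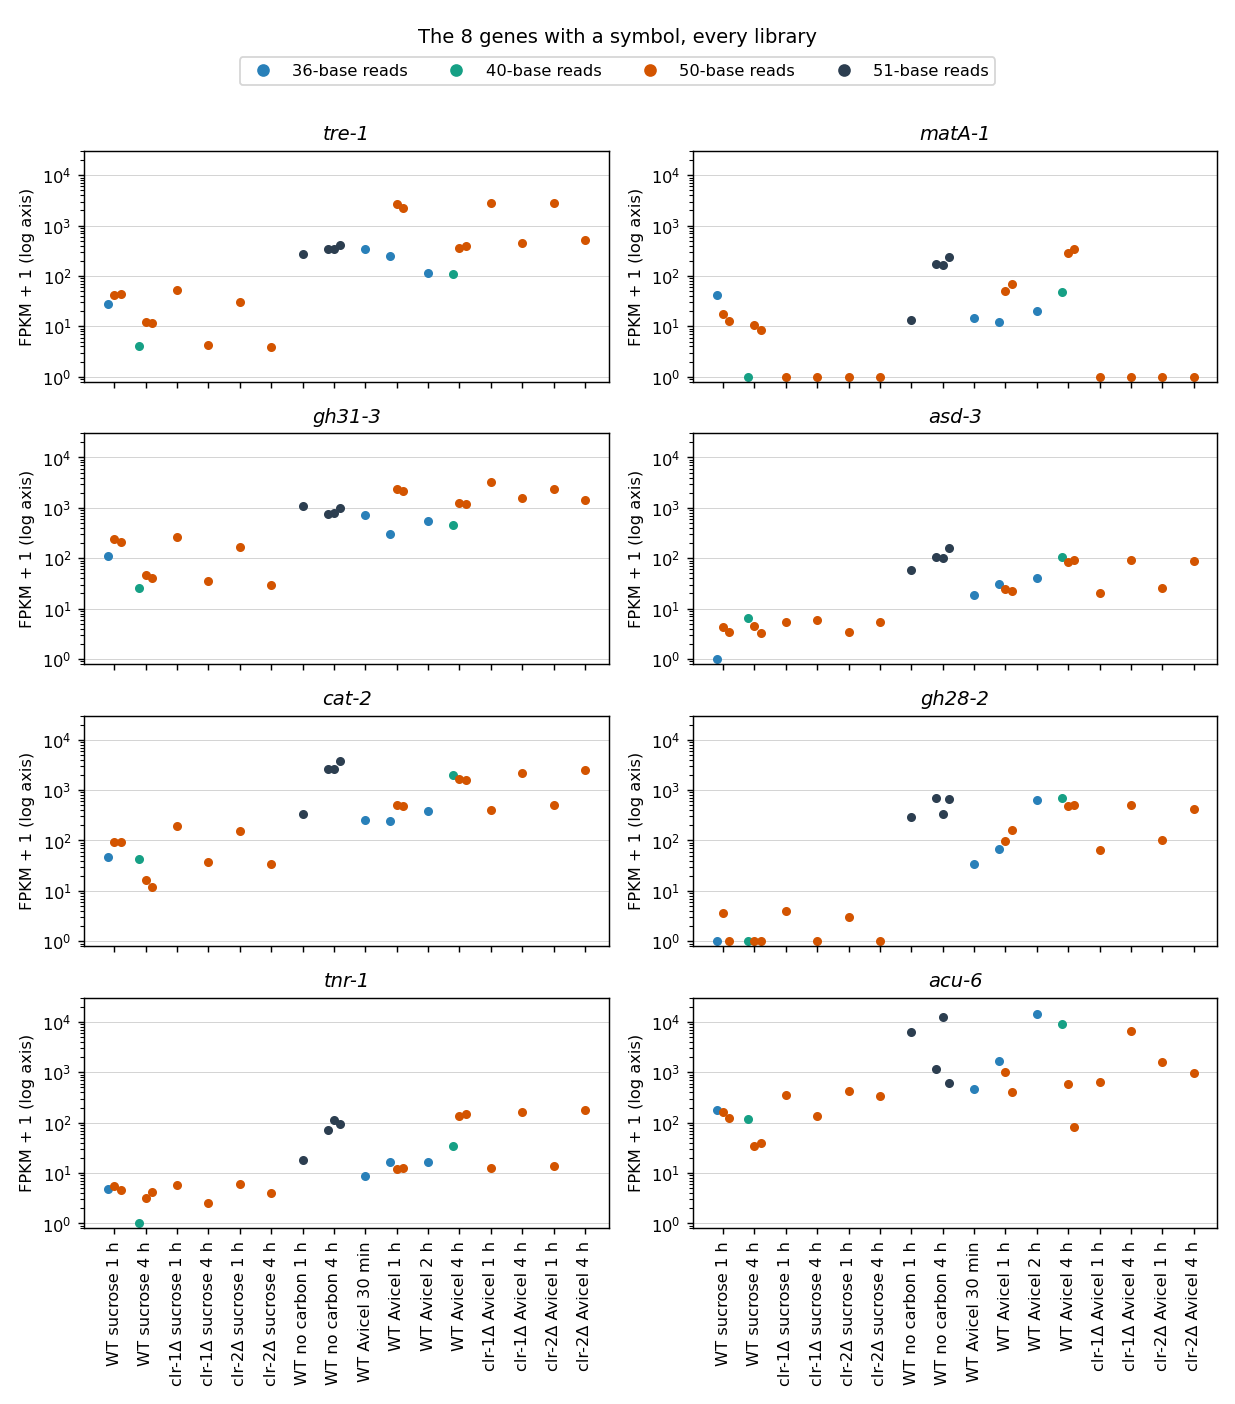
Level of the 8 genes with a symbol in every library, as FPKM + 1 on a log axis. Each point is 1 library, coloured by inferred read length. For tre-1 at 1 h on Avicel the 50-base libraries of all 3 strains lie between 2212 and 2807 FPKM and the 36-base library at 251 FPKM, and matA-1 is at 0 in every deletion library.

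The other highly expressed genes have no symbol in the reference table. NCU05498 (supercontig 6, 1720714 to 1722141) had the highest levels, with 45446, 18970 and 16600 FPKM on Avicel and 30659, 34395 and 33681 FPKM without carbon at 4 h. Its sucrose libraries at 4 h were at 3156, 1135 and 57.0 FPKM, a wider spread as a fold, though not in FPKM, than on the other media at 4 h, with the 40-base library highest. NCU10040 (supercontig 4, 5939026 to 5940994) was at 21678, 27930 and 29284 FPKM on Avicel and 13195, 30261 and 34053 FPKM without carbon. In both genes the ranges of the media overlapped. In NCU08949 (supercontig 5, 5797381 to 5798765) they did not, with 4444 to 13405 FPKM on Avicel and 14096 to 20345 FPKM without carbon. NCU06977, NCU08541, NCU08847, NCU02526 and NCU04415 lay between 971 and 9921 FPKM on Avicel and between 2845 and 15515 FPKM without carbon, against 6.14 to 393 FPKM on sucrose. The highest library was more than 4-fold above the lowest in 20 genes on Avicel at 4 h and in 5 without carbon, and the 40-base Avicel library was the lowest of the 3 in 84 of the 136 genes. The same counts were not taken over all tested genes, so these are not read as a trait of the 136 genes.

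The 1 h libraries took no part in the choice of genes and show whether the same response was present earlier. On Avicel against sucrose at 1 h 115 of the 136 genes were higher, none was lower and 21 did not pass (limma, adjusted p under 0.05), where 37.3% of all tested genes were called higher and 24.6% lower. Their median log2 difference was 3.64, with quartiles of 2.48 and 5.26, beside 0.34 over all tested genes. All 3 Avicel libraries lay above all 3 sucrose libraries in 118 genes, or 86.8%, as they did in 40% of the tested genes. Without carbon against sucrose at 1 h 121 genes were higher, none was lower and 15 did not pass, where 35.5% of all tested genes were called higher and 23.4% lower, and the median was 4.61. The no-carbon library lay above all 3 sucrose libraries in 133 genes, as it did in 53.1% of the tested genes. The no-carbon group is a single library whose spread was taken from the wild-type triplicates, and both comparisons share the sucrose libraries. Within read lengths, the Avicel against sucrose median was 3.63 in the 36-base pair and 3.70 in the 50-base pairs. The conidiation marker sum at 1 h was 0 to 184 FPKM on sucrose, 111.8 to 625.9 FPKM on Avicel and 1683 FPKM without carbon. The markers did not move alike on Avicel at 1 h. There eas was at 26.2, 36.7 and 29.4 FPKM, against 0, 157 and 126 FPKM on sucrose. By contrast con-6, con-10 and con-13 were above all sucrose libraries, with con-10 at 41.2, 303 and 551 FPKM. Without carbon eas was at 1253 FPKM.

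Of the 5 largest 1 h differences on Avicel, 4 were in genes near 0 on sucrose. NCU04914 (supercontig 4, 716424 to 717544) was listed at 0 in all 3 sucrose libraries at 1 h and was at 1758, 705 and 749 FPKM on Avicel and 3855 FPKM without carbon. NCU01231 (supercontig 5, 3302228 to 3304405) was at 0 to 2.58 FPKM on sucrose and at 653, 2598 and 3298 FPKM on Avicel. NCU02188 was at 0 to 1.22 FPKM on sucrose and at 259, 554 and 902 FPKM on Avicel. NCU08491 was listed at 0 in all sucrose libraries and was at 194, 347 and 526 FPKM on Avicel. In each of these 4 genes the media did not overlap, and each rose (limma adjusted p from 4.43e-10 for NCU08491 to 8.38e-08 for NCU04914). The fifth, NCU05498, was at 13.3, 128 and 108 FPKM on sucrose at 1 h and at 16718, 16074 and 22045 FPKM on Avicel, and it rose by 8.27 (SE 1.14, limma adjusted p = 3.15e-05).

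Other genes did not pass the test on Avicel at 1 h and had their high level later. NCU07767 (supercontig 5, 371069 to 374955) had Avicel levels of 0, 0.49 and 0.95 FPKM after 1 h, 6.51 FPKM after 2 h and 66.4, 66.2 and 82.1 FPKM after 4 h. NCU09183 (supercontig 3, 277684 to 279201) was at 11.7, 8.58 and 6.31 FPKM on Avicel at 1 h, below the sucrose libraries at 17.8, 38.4 and 34.6 FPKM, and reached 66.4, 527 and 496 FPKM after 4 h. Its 1 h difference of -1.63 (SE 0.68) did not pass (limma adjusted p = 0.0503). NCU05040, NCU07767, NCU05850 and NCU09169 had differences of -0.04, 0.52, 0.56 and 0.46 at 1 h and did not pass either, although all 3 Avicel libraries of NCU09169 (19.0, 19.1 and 24.4 FPKM) lay above its sucrose libraries (10.5, 16.7 and 18.0 FPKM). The other 16 genes that did not pass had differences from 0.6 to 2.51, among them matA-1 at 0.72 and acu-6.

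Most of the genes had their highest level on Avicel at 2 h or 4 h. The median of the 136 genes was 96.2 FPKM after 30 min, 145.5 FPKM after 1 h, 241.8 FPKM after 2 h and 408.4 FPKM after 4 h; the times of 30 min and 2 h are single 36-base libraries. At 30 min 89 genes (65.4%) were already more than 4-fold above the sucrose mean at 1 h, as were 17.3% of all tested genes. The highest Avicel mean was at 30 min in 6 genes, at 1 h in 10, at 2 h in 35 and at 4 h in 85. The mean at 4 h was more than 4-fold above that at 1 h in 44 genes and more than 4-fold below it in 5. The counts by time of the highest mean and from 1 h to 4 h use the 4 h values of the rule. They were not taken over all tested genes, and none of the counts at any time has a test. NCU03415 (supercontig 2, 807910 to 809917) had the highest level at any time. On Avicel its level was 83060 FPKM after 30 min, 90695, 75296 and 55952 FPKM after 1 h, 102348 FPKM after 2 h, and 3976, 6761 and 6142 FPKM after 4 h. Without carbon it was 123623 FPKM after 1 h and 17335, 5620 and 9331 FPKM after 4 h, so it was lower at 4 h than at 1 h on both media.

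Whether Avicel and starvation gave like levels at 1 h as well was tested in libraries outside the rule. On Avicel against no carbon at 1 h 2 of the 136 genes were called, both lower on Avicel, where 0.324% of all tested genes were called lower and 0.464% higher, and 134 did not pass. The median difference was -0.77, beside -0.08 over all tested genes. Of the 136 differences 22 were above 0, a count not taken over all tested genes. The no-carbon library was above all 3 Avicel libraries in 90 genes (66.2%, beside 32.6% of the tested genes) and below all of them in 7 (23.3% of the tested genes). A p above the threshold does not show that levels were alike, since only 1 library represents no carbon.

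NCU01132 and NCU02307 passed this test. NCU01132 was at 90.8, 74.3 and 91.1 FPKM on Avicel and 748 FPKM without carbon at 1 h, a difference of -3.12 (SE 0.58, limma adjusted p = 0.0238). At 4 h it was at 130 to 185 FPKM on Avicel and 162 to 368 FPKM without carbon, and the media overlapped. NCU02307 was at 328, 272 and 253 FPKM on Avicel and 709 FPKM without carbon at 1 h, a difference of -1.32 (SE 0.26, limma adjusted p = 0.0368). Both were named after their values were seen. Leaving out 1 library at a time gave 0 to 4 calls, with 0 when Avicel 1 h replicate 2 or 3 was left out, 4 when replicate 1 was, and 1 without sucrose 1 h replicate 2 or 3, Avicel 4 h replicate 2 or 3, sucrose 4 h replicate 3 or no carbon 4 h replicate 1. Without replicate 1 of all Avicel and sucrose groups 33 genes were called, 6 higher and 27 lower, where 27.4% of all tested genes were called in either direction. The 6 were tre-1, gh31-3, matA-1, NCU04630, NCU06255 and NCU09771. In NCU09771 the Avicel libraries at 1 h were at 33.9, 203 and 187 FPKM and no carbon was at 71.2 FPKM, so that the 36-base library lay on the other side of no carbon from the 50-base libraries.

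**Figure D3:**
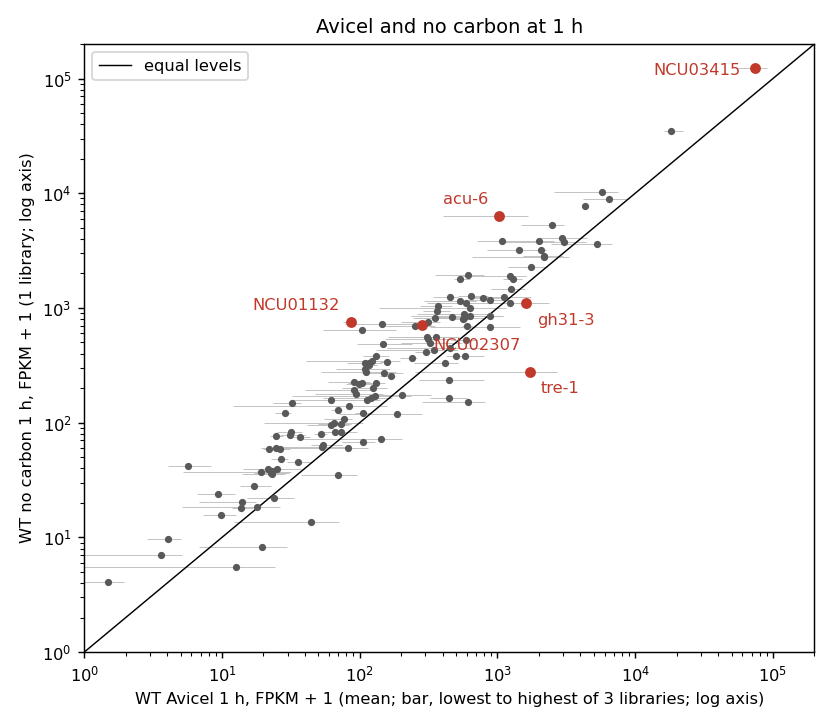
Level of the 136 genes at 1 h on Avicel (horizontal; mean, with a bar from the lowest to the highest of 3 libraries) and without carbon (vertical; 1 library), as FPKM + 1 on log axes. More points lie above the line of equal levels than below it, and tre-1 and gh31-3 lie below it with wide bars.

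The deletion strains, also outside the rule, give the levels of the genes on Avicel and sucrose in 1 strain lacking clr-1 and 1 lacking clr-2. Neither strain had a library without carbon. At 4 h the genes were high on Avicel and low on sucrose in both deletion strains. Their median was 499.9 FPKM in the clr-1 deletion and 460.2 FPKM in the clr-2 deletion on Avicel, and 10.9 and 9.3 FPKM on sucrose. In the clr-1 deletion 120 of the 136 genes were higher on Avicel than on sucrose at 4 h, where 15.2% of all tested genes were called higher and 12.5% lower, with a median difference of 4.98. In the clr-2 deletion 123 were higher, where 17.7% of all tested genes were called higher and 12.9% lower, with a median of 5.16. The same 120 genes were called in both strains, and no gene was called lower in either. At 1 h 82 genes were higher in the clr-1 deletion (11% of all tested genes) and 94 in the clr-2 deletion (15.7%), with medians of 3.01 and 3.38. Each of these comparisons sets 1 library against 1, with the spread taken from wild type. The rise at 4 h was not particular to the 136 genes. In the 143 genes more than 2-fold above no carbon, the median differences in the clr-1 and clr-2 deletions were 3.62 and 3.97. In the 129 genes more than 2-fold above Avicel they were 4.57 and 4.63. The conidiation marker sum at 4 h on Avicel was 15063 FPKM in the clr-1 deletion and 22694 FPKM in the clr-2 deletion, against 22.3 to 45.2 FPKM in their sucrose libraries. Of these Avicel sums, eas alone was at 13085 and 20484 FPKM.

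Among the symbol genes, cat-2 was at 2216 FPKM on Avicel and 36.9 FPKM on sucrose at 4 h in the clr-1 deletion, and at 2549 and 33.6 FPKM in the clr-2 deletion. The differences were 5.87 and 6.20 (SE 0.74, limma adjusted p = 0.000104 and 6.24e-05). gh28-2 was at 502 and 422 FPKM on Avicel in the clr-1 and clr-2 deletions and listed at 0 on sucrose in both. tre-1 was at 458 and 528 FPKM on Avicel against 3.23 and 2.98 FPKM on sucrose, and it was higher on Avicel in both (limma adjusted p = 0.00206 and 0.00141). acu-6 was at 6493 FPKM on Avicel in the clr-1 deletion and 981 FPKM in the clr-2 deletion, and neither its difference from sucrose (adjusted p = 0.102 and 0.678) nor that between the strains (2.73, SE 2.40, adjusted p = 1) passed the limma test. On Avicel at 4 h none of the 136 genes was called different between the deletion strains, where 0.0579% of all tested genes were called. At an unadjusted p under 0.05 (limma) the count was 0 as well, beside 29 of the 8629 tested genes.

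Set directly against wild type on Avicel at 4 h, 2 of the 136 genes were called lower in the clr-1 deletion, where 1.07% of all tested genes were called lower and 0.197% higher, and none was higher. The same 2 genes were called lower in the clr-2 deletion, where 0.904% were called lower and 0.104% higher. These counts are a description and nothing is read from their p-values, because the wild-type libraries at 4 h were used by the rule, which favours genes high in them, and both comparisons share these libraries. Median differences were 0.42 and 0.36, beside 0.11 and 0.12 over all tested genes, and became 0.22 and 0.23 without replicate 1 of the wild-type Avicel and sucrose groups. The clr-1 deletion library lay above all 3 wild-type libraries in 70 genes (34.5% of tested genes), within their range in 48 and below all of them in 18 (22.7% of tested genes). For the clr-2 deletion these counts were 69 (37% of tested genes), 46 and 21 (20.8% of tested genes). Leaving out Avicel 1 h replicate 1 raised the calls in the clr-1 deletion at 4 h to 4, and leaving out replicate 1 of all Avicel and sucrose groups raised them to 6, 3 in each direction.

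The 1 h libraries, which the rule did not use, allow the same comparison as a test. Between wild type and either deletion on Avicel, no gene of the 136 was called after 1 h (limma), where 0.0116% and 0.0579% of all tested genes were called. At an unadjusted p under 0.05 the counts were 8 and 2, beside 321 and 56 of the 8629 tested genes. With 1 library for each deletion and so few calls over all genes, the lack of a call does not show that levels were alike. In the clr-1 deletion the median difference was -0.3, beside 0 over all tested genes, and the library lay below all 3 wild-type libraries in 59 genes (28% of tested genes), within their range in 68 and above all of them in 9 (24.5% of tested genes). In the clr-2 deletion the median was 0, with 33 genes below (19.1% of tested genes), 86 within and 17 above (16.6% of tested genes). The Avicel response at 1 h, set against that of wild type, was called changed in no gene for either deletion, where 0% and 0.0116% of all tested genes were called. At an unadjusted p under 0.05 (limma) the counts were 12 and 4, beside 408 and 114 of the 8629 tested genes. The median change of the response was -0.62 in the clr-1 deletion and -0.2 in the clr-2 deletion, beside -0.03 and 0.01 over all tested genes. It was above 0 in 24 and 55 of the 136 genes, counts not taken over all tested genes. Without replicate 1 of the wild-type Avicel and sucrose groups 3 genes were called lower in the clr-1 response, and matA-1 was called lower in both deletions at 1 h.

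The 2 genes were matA-1 and NCU05980. NCU05980, named after its values were seen, was at 306, 454 and 395 FPKM in wild type on Avicel at 4 h and at 25.7 and 24.6 FPKM in the clr-1 and clr-2 deletions. The groups did not overlap, and the log2 differences were -3.84 and -3.90. It was at 379, 549 and 337 FPKM without carbon at 4 h in wild type, and at 1 h its highest levels were 27.8 FPKM on Avicel, 34.5 FPKM without carbon and 15.8 FPKM on sucrose. On sucrose at 1 h and 4 h it was at 3.85 to 5.59 FPKM in the deletions and 11.7 to 18.9 FPKM in wild type, again without overlap. NCU05980 was thus lower in both deletion strains on sucrose as well, and the part of strain background was not tested. In both deletions it was still higher on Avicel than on sucrose at 4 h, by 2.20 and 1.96 (SE 0.53, limma adjusted p = 0.00775 and 0.0136). matA-1 was listed at 0 in all 8 deletion libraries, sucrose included. The pheromone precursor gene of mat A strains, ccg-4, which is not among the 136, was also listed at 0 in all 8 deletion libraries and was at 1211, 3252 and 3710 FPKM in wild type on Avicel at 4 h. The 2 mating types of this fungus carry unrelated genes at the mating type locus, and the labels do not give the mating type of any strain, so strain background and deletion cannot be told apart for matA-1.

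At 1 h the genes farthest from wild type in the mean of both deletions on Avicel did not pass the test. NCU11476 was at 30.8 and 18.5 FPKM in the clr-1 and clr-2 deletions and at 0, 11.7 and 23.3 FPKM in wild type. tre-1, gh31-3, NCU09771 and NCU06123 followed on the higher side, with mean log2 differences of 1.29, 1.27, 1.15 and 0.84, and in all 4 the 36-base wild-type library was the lowest of the 3. On the lower side, after matA-1, NCU05078 was at 45.1 and 48.8 FPKM in the deletions and at 107, 81.1 and 120 FPKM in wild type. In that gene, unlike in NCU11476, the groups did not overlap.

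**Figure D4:**
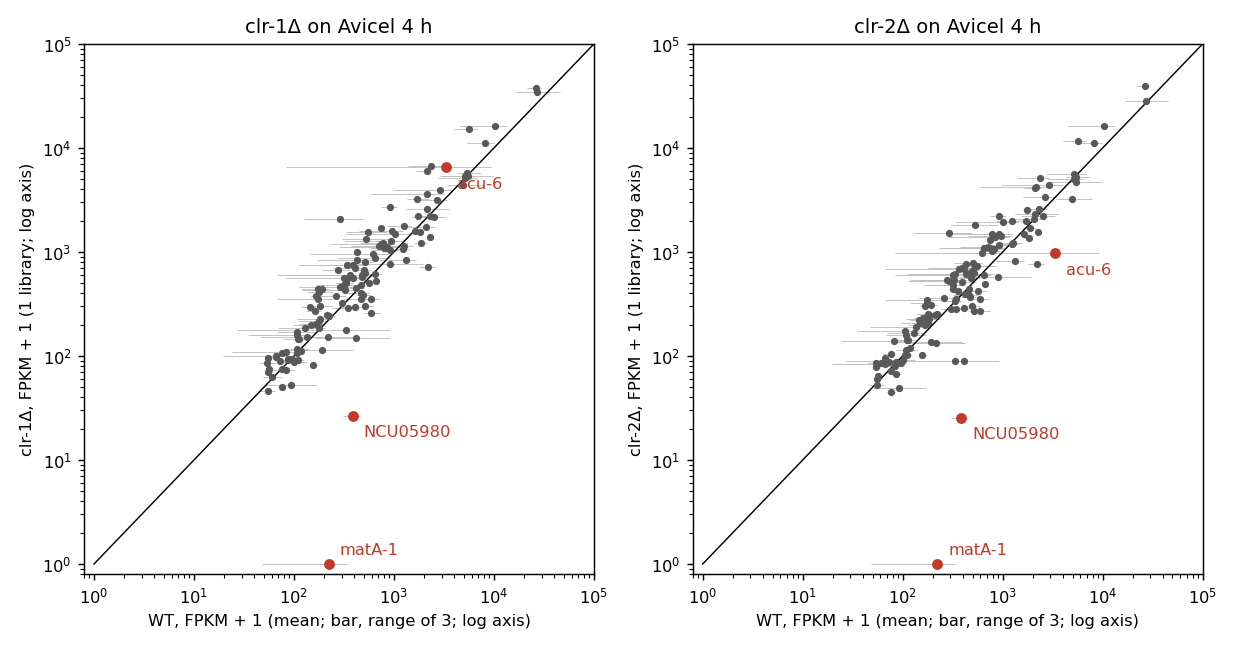
Level of the 136 genes on Avicel at 4 h in wild type (horizontal; mean, with a bar over the range of 3 libraries) and in each deletion strain (vertical; 1 library), as FPKM + 1 on log axes; the line marks equal levels. NCU05980 at 25.7 and 24.6 FPKM and matA-1 at 0 lie apart below the line.

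Fresh sucrose left the genes low in all 3 strains. In wild type their median was 8.4 FPKM after 1 h and 6.7 FPKM after 4 h. The median log2 difference of 1 h from 4 h was 0.5 in wild type and 0 in both deletions, and deletion minus wild type at 4 h had medians of 0.63 and 0.44. The rule favours low wild-type values at 4 h on sucrose, so these shifts are not read further.

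By place in the genome, 27 of the 136 genes lay next to another of them, in 14 neighbouring pairs. A gene of the set held 28 of the 272 places beside the 136 genes (10.29%), while 1.4% of all genes belong to the set. The longest run was NCU08491, NCU08490 and NCU08489 on supercontig 2, from 3476838 to 3484524. At 4 h on Avicel NCU08491 was at 697, 783 and 751 FPKM, NCU08490 at 322, 617 and 583 FPKM and NCU08489 at 118, 199 and 202 FPKM, so their levels were lower in that order in each library. The neighbours NCU05499 and NCU05498 on supercontig 6 differed in timing. NCU05499 had Avicel levels of 183, 53.5 and 72.6 FPKM after 1 h, 5051 FPKM after 2 h and 258, 489 and 126 FPKM after 4 h, while NCU05498 already had its high level after 1 h. The models of 11 genes overlap another gene model, and those of NCU11866 and NCU11867 overlap each other, so their levels may share reads. Each supercontig from 1 to 7 held 10 to 29 of the genes, or 0.8% to 2.22% of its genes.

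Lists of known genes placed the set beside other carbon responses. Of 9 genes of carbon derepression, acu-6 alone belonged to the set; 8 of the 9 were higher on Avicel and 7 without carbon at 1 h than on sucrose, and acu-6 was the one that did not pass on Avicel. The medians were 3.55 and 4.01. The other 8 did not meet the rule at 4 h. The glucose transporter gene hgt-1 had Avicel means of 63508 FPKM after 1 h and 5213 FPKM after 4 h. acu-6 was also the one member among 6 genes of acetate use, of which all but acu-6, or 5, were higher on Avicel and 5 were higher without carbon. Of 79 glycoside hydrolase genes 74 were tested and 49 were higher and 3 lower on Avicel at 1 h, with gh31-3 and gh28-2 in the set. Of 6 genes of oxidative stress defence cat-2 alone belonged to the set; 1 was higher and 2 were lower on Avicel. No gene of the set was among 4 cellulase, 4 sugar transporter, 7 quinic acid, 2 autophagy, 7 light, 9 clock-controlled, 4 conidiation and 6 regulator genes. Of these lists 4, 4, 6, 2, 3, 1, 3 and 3 genes were higher on Avicel at 1 h, and 1 clock-controlled and 2 regulator genes were lower, where 37.3% of all tested genes were called higher and 24.6% lower. None of the 136 genes was in the authors' list of 212 clustered genes, where 114 of the 143 genes above no carbon were. That list rests on the same 4 h libraries. With 212 genes beside 9733 in all, a list of this size would hold few of 136 genes taken at random. For this reason, and because the rule uses the same libraries, the absence of the 136 genes is not read further.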

How the data were processed

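RNA of 26 libraries was aligned with TopHat, and the authors computed FPKM per transcript with Cufflinks 0.9.3, per the submitters' processing notes; the genome build is not given in the sources used here. The deposited files also hold a coverage signal and transcript coordinates, per the file headers. Reads were recovered from coverage and length, with the read length of each library inferred as one that gave near-whole read counts. Counts were whole for 87.6% to 93.2% of transcripts with low counts, the only ones checked (tolerance 0.02). The authors' cluster table supplied gene IDs alone; its deposited weight is a score, and its 4 value columns were not used. The 9907 transcripts were summed to 9733 genes; the reference table (RefSeq) lists 8914 of them and 128 of the 136 members, and coordinates are those of the files, 1-based.

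The members and lists were chosen with earlier results of these data known. Values were log2(FPKM + 1), with 8629 genes of a mean of at least 1 FPKM tested, and all 136 members were among them. A model with a mean for each group was fitted over all libraries with limma (3.58.1, in R 4.3.3), with a variance trend, two-sided tests and Benjamini-Hochberg adjustment over the tested genes of each of 15 comparisons; 10 residual degrees of freedom come from the wild-type triplicates, and groups of 1 library were assumed to vary alike. The fit was tested on simulated data. Fold changes on this scale understate those of low genes.

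Genes named with values were those with a symbol, the 10 highest, the 5 largest and 5 smallest differences at 1 h, the 5 largest differences of the deletion strains at 1 h in each direction and the 3 nearest each threshold; the text gives a selection. Alternatives changed the pseudocount, the filter, the scaling, the variance trend and the libraries. Same-numbered libraries on Avicel and sucrose at 1 h deviated together (r = 0.28, 0.18 and 0.24), so replicate numbers were taken to pair them, and a fit with the replicate block was run; the pairing comes from these correlations, as the labels do not state it. Replicate 1 had 36-base reads in both groups, so shared read length and pairing cannot be told apart here. In other pairs of groups the same number did not always match best, as for replicate 2 on Avicel at 1 h and 4 h (r = 0.07).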

Additional observations from a re-analysis of the deposited data

How the results depend on the processing

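Calls on Avicel against no carbon at 1 h moved most. The 2 genes called became 1 with a pseudocount of 0.1, 6 with a pseudocount of 10, 1 after rescaling, 1 without a variance trend, 33 without replicate 1 of the wild-type Avicel and sucrose groups, and 0 to 4 when 1 library was left out. Without these replicates the clr-1 deletion against wild type on Avicel gave 6 genes in place of 2 at 4 h and 1 in place of 0 at 1 h, the clr-2 deletion at 1 h gave 1 in place of 0, and the change of the Avicel response at 1 h in the clr-1 deletion gave 3 in place of 0. Leaving out 1 library gave 2 to 4 for the clr-1 deletion at 4 h. The cause of each change was not tested. The replicate block, which pairs same-numbered libraries, gave 121 genes higher on Avicel at 1 h in place of 115 and changed no call among the named genes there; it was fitted for that comparison only. The rule chose 245 genes at a fold of 8, 79 at a fold of 32, 83 within 1.5-fold and 128 to 147 when 1 library was left out. The choice without the 40-base libraries, added after seeing the data, gave 159 genes, 116 of them shared.

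The sign of NCU05040 on Avicel against sucrose at 1 h turned from -0.04 to 0.05 with a pseudocount of 10, and 0.41 without replicate 1 of all Avicel and sucrose groups, and ran from -0.47 to 0.71 when 1 library was left out, above 0 without Avicel 1 h replicate 1 or sucrose 1 h replicate 2 or 3. That of NCU05850, 0.56, ran from -0.01 without sucrose 1 h replicate 1 to 0.94 without replicate 3. The tests of the Avicel response between strains were also added after seeing the data. Depth limits the 36- and 40-base libraries, which had 11.8 M to 19.3 M reads, and low values below about 10 reads are listed as 0.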
